A study of Homo sapiens with 6 samples.

Results

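The early gene body, taken here as the stretch from 2 to 10 kb downstream of position 0, was described in GRO-seq profiles of MRC5VA cells, an immortalised human lung fibroblast line. Its members are the 8000 single-base positions from 2 kb up to, but not including, 10 kb in each of 6 profiles, or 6.56% of the 122001 positions in a profile. The rule for members uses position alone. All cells had first been held for 3.5 hours in 100 µM DRB, which was washed out at time 0. Each group is 1 library: untreated cells at 10, 25 and 40 min after washout, and cells given 15 J/m2 of UVC immediately before washout, also at 10, 25 and 40 min. No drug-free group is among these libraries, so every group carries the DRB block and its release.

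DRB inhibits P-TEFb, the kinase that lets paused RNA polymerase II leave the promoter-proximal region for productive elongation. While the drug is present, gene bodies empty of polymerase, and its removal sends polymerases into genes as a wave. UVC produces bulky pyrimidine photoproducts, and such a lesion in the transcribed strand is a strong block to RNA polymerase II and the entry point for transcription-coupled repair. GRO-seq lets the engaged polymerases in isolated nuclei extend their transcripts with BrUTP, here for 5 min, and sequences the BrU-labelled RNA, so its signal follows the density of engaged polymerases along a gene. The first kilobases after the pause region are crossed by every released polymerase that reaches the rest of a long gene.

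Each value below is the deposited signal averaged over genes at a position, on the authors' scale, whose unit is not stated. Values in a library were whole multiples of 1 smallest step, and positions from 2 to 10 kb held on average 59200 to 93907 such steps. What 1 step counts is not given in the sources used here, so the read depth is unknown and no counting interval is given. Because each group holds 1 library, the spread between cultures is unknown, and differences between single libraries carry no p-value. Position 0 was taken as the annotated start of genes, although the file headers do not say so.

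In the human annotation of the build named in the submitters' processing notes (GRCh37, GENCODE release 44), the bases from 2 to 10 kb after the start of protein-coding genes were mostly intronic. Each gene was represented by its Ensembl canonical transcript, whose start and end were taken as those of the gene. Within genes, the first intron held 49.1% of these bases, later introns 41.8%, later exons 8.61% and first exons 0.50%. Of 18673 genes that extended to 2 kb, 24.8% ended before 10 kb. In the 2483 genes of at least 120 kb, all of which span the window, the first intron held 78.4% of the bases and exons after the first 0.70%. The authors' gene set is not given in the sources used here, and the part that ending genes may have in the fall of the profiles was not tested.

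Signal in the early gene body fell with distance in all 6 libraries, steeply at 10 min, hardly at all in untreated cells later on, and to an intermediate degree in irradiated cells later on. In the untreated 10 min library the mean signal went from 7.11 in the bin from 2 to 3 kb to 1.99 in the bin from 9 to 10 kb, so that 27.9% remained. The irradiated library of the same time went from 6.33 to 1.15, which left 18.1%. Both 10 min profiles were thus highest at the near edge and lost most of their signal within the window.

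By 25 min the untreated profile was nearly level, at 4.31 in the first bin and 3.91 in the last, with 90.7% remaining. It was flatter still at 40 min, at 3.65 and 3.42, with 93.7% remaining. The irradiated profile kept a clear gradient at the same times, from 4.85 to 2.30 at 25 min (47.4% remaining) and from 4.94 to 2.52 at 40 min (51.0% remaining). The first bin of irradiated cells was therefore above that of untreated cells at both later times, and the last bin below it.

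**Figure D1:**
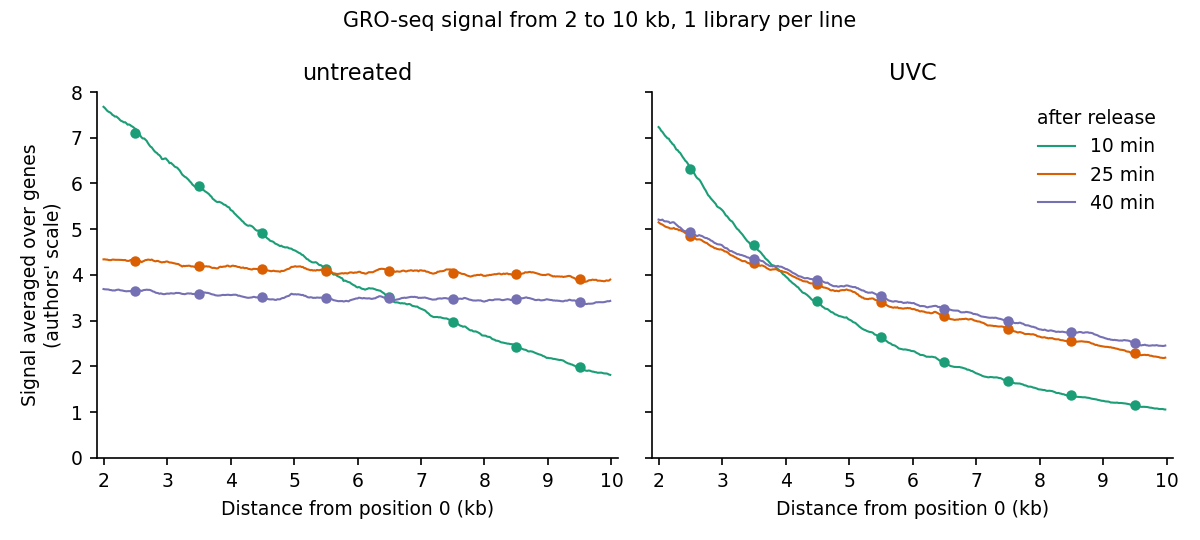
Signal averaged over genes (authors' scale, linear axis from 0) against distance from position 0 in kb, for untreated (left) and UVC-irradiated (right) cells; lines are single-base values drawn every 20 bp, points are means of 1 kb bins, and each line is 1 library. The untreated profiles at 25 and 40 min run nearly level near 4 and 3.5, whereas the irradiated profiles at these times slope from about 5 to between 2 and 3.

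The spread of single-base values across the window gives the same contrast without a fit. Over the 8000 positions, untreated signal averaged 4.12 ± 1.67 (SD over positions) at 10 min, 4.10 ± 0.118 at 25 min and 3.51 ± 0.0746 at 40 min. Irradiated signal averaged 2.91 ± 1.71, 3.39 ± 0.825 and 3.53 ± 0.782. Between the earliest and the later times the SD dropped far more in untreated than in irradiated cells. These SDs describe the gradient along 1 averaged profile and are no error of the mean.

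The position by which 50% of the signal of the window had accumulated, which would be 6 kb for a level profile, was 4.68, 5.92 and 5.94 kb for the untreated libraries in order of time. For the irradiated libraries it was 4.18, 5.18 and 5.25 kb. At each time the irradiated signal was thus held nearer to the start of genes. This measure does not depend on the factor by which a library was scaled.

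The rate of decay was taken as the least-squares slope of log2 signal over the 8 bins of 1 kb. The untreated slope was -0.26, -0.016 and -0.011 per kb in order of time. The irradiated slope was -0.35, -0.15 and -0.14. The SE of these 6 slopes over the bins, which measures departure from a straight line and not error between cultures, ran from 0.0018 to 0.0138. The irradiated slope was 1.36 times the untreated slope at 10 min, 9.14 times at 25 min and 11.9 times at 40 min. Paired by time, the irradiated slope was the steeper in 3 of 3 pairs, by -0.12 ± 0.022 log2 per kb (mean and SD of the differences). A two-sided exact permutation test over these 3 pairs gave p = 0.25 (0.25 after Benjamini-Hochberg adjustment over 2 tests), which is the smallest that 3 pairs allow, and the pairs are different times and not replicates of a time. The ratio grew although the irradiated slope itself became shallower, since the untreated slope came close to 0.

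Expressed as a distance, the fitted signal at 10 min fell by 50% over 3.86 kb without irradiation and over 2.85 kb with it. After irradiation this distance lengthened to 6.64 kb at 25 min and 7.37 kb at 40 min. For the later untreated libraries the fit gives 60.7 and 87.9 kb, many times the length of the window, so there the numbers only say that the profile was close to level. The smoothed signal itself (running mean of 1 kb) reached 50% of its level at 2 kb at 5.91 kb in the untreated 10 min library. The irradiated libraries reached that point at 4.27, 8.33 and 9.12 kb in order of time. The later untreated libraries did not reach it within the window.

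On the deposited values, background included, the 10 min profiles differed in the shape of their decline. From one 1 kb bin to the next, untreated signal at 10 min fell by 16.5%, 17.3%, 15.9%, 14.9%, 15.8%, 17.9% and 18.3%, a nearly constant share that was largest at the far end. Irradiated signal at 10 min fell by 26.6%, 26.3%, 23.1%, 20.5%, 19.8%, 18.4% and 16.2%, a share that became smaller with distance at each of the 7 steps. At the last step the irradiated loss was the smaller of the pair, although it had been the larger at the other steps.

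The lowest signal ahead of the wave, called the trough here (the minimum of the profile after a running mean of 2 kb), had at 10 min a level of 0.757 without and 0.743 with irradiation. The last bin stood at 2.62 times the trough in untreated cells and at 1.54 times in irradiated cells, so the irradiated profile had come closer to its own floor. With the trough subtracted, the irradiated log2 steps were -0.52, -0.54, -0.51, -0.49, -0.53, -0.58 and -0.63, smallest at 6 kb and largest at the far end. The untreated steps were then -0.295 at the first boundary and -0.445 at the last, and were also smallest at 6 kb and largest at the far end. The irradiated step was then the larger of the pair at every boundary, the last included. The reversal at the last step on the deposited values was thus not seen with the trough subtracted. The trough-subtracted slopes at 10 min were -0.33 per kb without and -0.53 per kb with irradiation, a ratio of 1.61.

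In irradiated cells at 25 and 40 min the loss per bin varied little along the window. It ran from 8.80% to 12.2% at 25 min and from 7.83% to 11.8% at 40 min, and was largest at the step from the first to the second bin in both. A straight line on the log2 scale followed the 8 bins at these times with R2 of 0.998 and 0.994, against 0.977 and 0.970 for a straight line on the linear scale. With the trough subtracted the R2 of the log2 line was 0.999 at 25 min and 0.998 at 40 min. The points are neighbouring bins of 1 averaged profile, so these R2 values are descriptions only.

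The untreated library at 25 min lost 0.098% to 2.71% per bin. At 40 min the changes ran from a gain of 0.183% to a loss of 2.08%. Thus the largest loss per bin in untreated cells at these times was smaller than the smallest loss in irradiated cells.

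**Figure D2:**
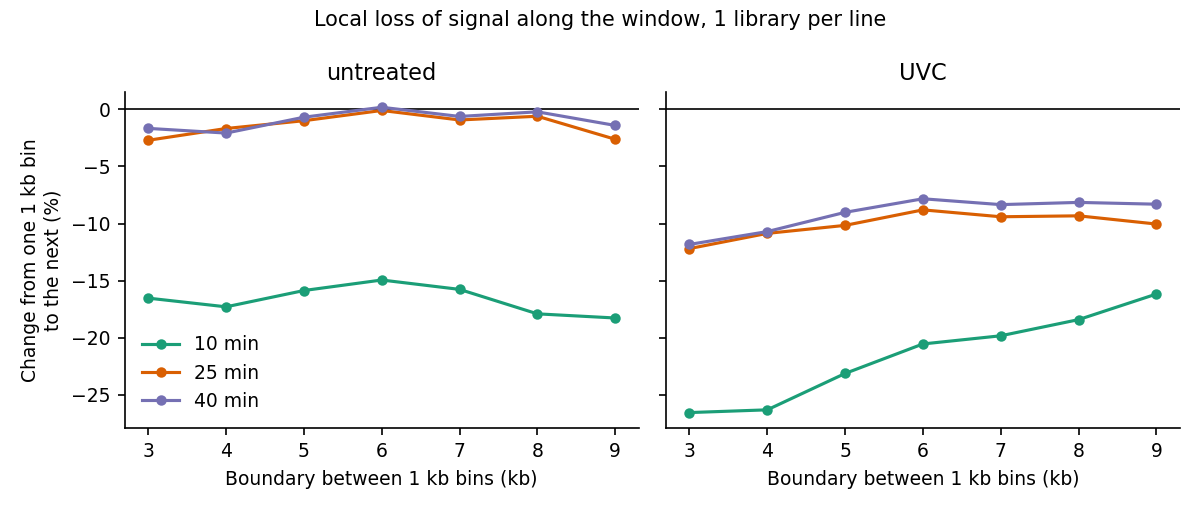
Percent change of mean signal from one 1 kb bin to the next, plotted at the boundary between the bins (kb from position 0), for untreated (left) and irradiated (right) cells; each line is 1 library. Irradiated cells at 25 and 40 min lose 7.83% to 12.2% at every boundary, and untreated cells at these times lose 2.71% or less.

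The step across 6 kb, from the bin at 5 to 6 kb to the bin at 6 to 7 kb, was the smallest loss in 5 of the 6 libraries, the exception being irradiated cells at 10 min. With the trough subtracted it was the smallest in all 6. Finer structure was also shared. Around a running mean of 1 kb, the 80 bins of 100 bp deviated with an SD of 0.613% to 0.727% across libraries, and never by more than 1.99%. Pearson's r of these deviations between libraries was 0.585 in the median of 15 pairs (range 0.282 to 0.726, 80 bins). The pairs share the averaged genes, and the values are given as a description.

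Among the bins of 100 bp, the largest mean deviations were +1.27% at 5.0 to 5.1 kb, +1.20% at 6.3 to 6.4 kb and -1.14% at 9.5 to 9.6 kb. Each had the same sign in all 6 libraries. At 5.0 to 5.1 kb the untreated values were 0.764%, 1.66% and 1.77% and the irradiated values 0.820%, 1.55% and 1.07%, each in order of time. Ripples of this size are small beside the gradients described above, but not beside the change of untreated cells at 25 and 40 min from one bin to the next.

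How much of all signal lay in the early gene body moved in opposite directions with time on the deposited values. Of the untreated signal from 0 to 120 kb, the window held 19.6%, 14.9% and 10.7% in order of time. Of the irradiated signal it held 14.6%, 16.1% and 16.7%. An even spread would give 6.67%. The irradiated share was thus the lower of the pair at 10 min and the higher at 25 and 40 min. A share within a library does not depend on the scaling factor, but it depends on signal elsewhere and on the background. With the distal mean subtracted, the irradiated share was 57.7% at 25 min and 56.2% at 40 min, a change in the direction of the untreated one. In the stretch from 10 to 25 kb the mean in order of time was 0.923, 3.31 and 3.31 for the untreated and 0.788, 1.33 and 1.56 for the irradiated libraries.

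**Figure D3:**
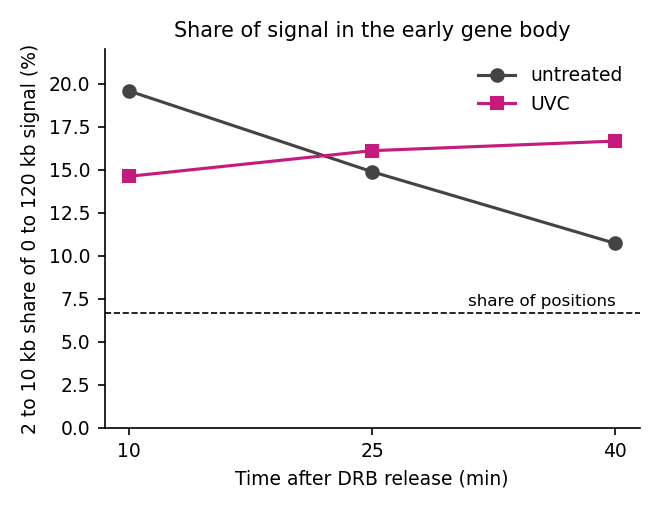
Share of the 0 to 120 kb signal that lay from 2 to 10 kb (percent, axis from 0) against time after DRB release (min); each point is 1 library and the dashed line marks the 6.67% expected from the number of positions. Untreated cells fall from 19.6% to 10.7% and irradiated cells go from 14.6% to 16.7%, crossing between 10 and 25 min.

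The change with time was then followed bin by bin within each treatment. From 10 to 25 min untreated signal turned over around a point inside the window: the bin from 2 to 3 kb was at 0.607 times its 10 min level and the bin from 9 to 10 kb at 1.97 times. The ratio of later to earlier signal passed 1 at 5.57 kb. In irradiated cells the corresponding ratios were 0.766 and 2.004, and 1 was passed nearer to the gene start, at 3.94 kb. Over the whole window the untreated mean was 4.12 at 10 min and 4.10 at 25 min, because loss near the start and gain farther in were of similar size. The irradiated mean was 2.91 and 3.39.

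The ratio of later to earlier signal from 10 to 25 min was higher in irradiated cells in every 1 kb bin of the window. It was 0.766 against 0.607 times from 2 to 3 kb and 1.49 against 1.16 times from 6 to 7 kb. Farther in it was 1.68 against 1.37 times from 7 to 8 kb and 1.87 against 1.65 times from 8 to 9 kb. In the last bin it was nearly equal on the deposited scale. In signal units, untreated cells gained more from 8 to 9 kb (2.43 to 4.02 against 1.37 to 2.55). From 7 to 8 kb irradiated cells gained slightly more (1.68 to 2.82 against 2.96 to 4.04). Divided by the profile total, the smoothed ratio at 10 kb was 2.04 in irradiated and 1.71 in untreated cells. In the bin from 9 to 10 kb, untreated signal went from 1.99 to 3.91 and irradiated signal from 1.15 to 2.30. Their difference at 25 min, 1.62 on the deposited scale, was wider than the 0.840 at 10 min. On the deposited scale, background included, the ratio of irradiated to untreated signal in this bin hardly changed, from 0.577 at 10 min to 0.587 at 25 min. Divided by the profile total, the smoothed ratio of irradiated to untreated signal at 10 kb went from 0.613 to 0.730. With the trough of each profile subtracted (its lowest 2 kb running mean), that smoothed ratio rose from 0.300 to 0.469.

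From 25 to 40 min the treatments diverged in direction. Untreated signal was lower at 40 min in all 8 bins, by a nearly uniform factor of 0.845 to 0.873. Irradiated signal was higher at 40 min in all 8 bins, by a factor that grew with distance from 1.02 in the first bin to 1.10 in the last. The window mean went from 4.10 to 3.51 in untreated cells (log2 change -0.22) and from 3.39 to 3.53 in irradiated cells (log2 change 0.059). Both directions held when each profile was divided by its total or by its distal mean (positions in the farthest 10% of the downstream part). Neighbouring bins of 1 library are not replicates, and 8 of 8 bins is a statement about these libraries.

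**Figure D4:**
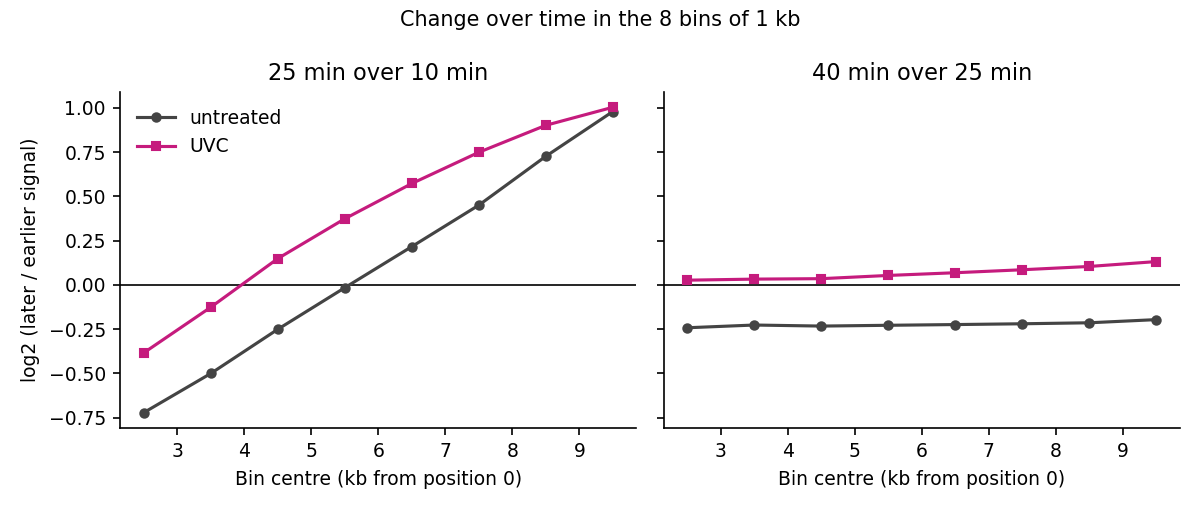
log2 ratio of later to earlier signal in the 8 bins of 1 kb (x axis, bin centre in kb from position 0), for 25 over 10 min (left) and 40 over 25 min (right); circles are untreated and squares irradiated cells, 1 library each per time. On the left both lines rise through 0, irradiated cells nearer to position 0; on the right untreated cells lie below 0 and irradiated cells above 0 in every bin.

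At 10 min irradiated signal was below untreated signal at every position of the window. The ratio of irradiated to untreated signal was 0.889 in the bin from 2 to 3 kb, where the signals were 6.33 and 7.11. The bin at 4 to 5 kb had a ratio of 0.697 (3.42 and 4.91), that at 8 to 9 kb 0.563 (1.37 and 2.43) and that at 9 to 10 kb 0.577. After smoothing, its lowest value within the window was 56.2%, at 8.17 kb. Beyond that point the ratio turned upward while both signals approached their trough. The upturn depended on the background: with the trough subtracted, the smoothed ratio was lowest at the far edge of the window (0.300 at 10 kb). The last downward crossing upstream of the window lay at 1.63 kb. Beyond the window the ratio rose to 1 at 19.4 kb and first passed downward again at 19.9 kb.

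At 25 min the early gene body held a single crossing, at 3.64 kb. The first bin had a ratio of 1.12 (4.85 irradiated, 4.31 untreated) and the second, at 3 to 4 kb, 1.01. The bins that start at 4, 6 and 9 kb had ratios of 0.919, 0.762 and 0.587. The near edge thus held more signal in irradiated cells and the rest of the window less. Without any smoothing the profiles also crossed a single time, at 3.68 kb.

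At 40 min the crossing lay farther in, at 5.66 kb. The first bin had a ratio of 1.35 (4.94 irradiated, 3.65 untreated), and the bins that start at 3 and 4 kb had 1.21 and 1.11. Those that start at 5, 6 and 9 kb had 1.01, 0.933 and 0.737. The single-base profiles crossed 5 times between 5.60 and 5.74 kb, and the smoothed crossing lay between these positions. Averaged over the window the ratio was 1.01, against 0.707 at 10 min and 0.826 at 25 min. On the deposited scale the 40 min mean combines an excess at the near side and a deficit of similar size at the far side. Divided by the profile total, the 40 min ratio ran from 2.16 at 2 kb to 1.09 at 10 kb, with no deficit in the window.

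Counted in bins of 100 bp on the deposited scale, the ratio was below 1 in 80 of 80 bins at 10 min, against 38.8% of the 1220 bins of the whole profile. It was below 1 in 63 of 80 (78.8%) at 25 min, against 81.3%, and in 44 of 80 (55.0%) at 40 min, against 93.8%. At 25 min the share in the early gene body was thus near that of the whole profile. The ratio was under 0.8 in 67, 40 and 18 of the 80 bins at 10, 25 and 40 min, where the whole profile had 8.61%, 28.4% and 52.4% of its bins under that level. With time, deficits of this size became rarer in the early gene body and more common along the profile. Divided by the profile total, the ratio was below 1 in 80, 37 and 0 of the 80 bins, against 12.6%, 27.7% and 40.8% of all bins. Divided by the distal mean it was below 1 in 80, 54 and 24, against 42.0%, 39.0% and 62.5%.

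The gradient of the ratio, which is free of the scaling factor, was -0.092, -0.13 and -0.12 per kb on the log2 scale in order of time. It was close to uniform in the later pairs, with -0.14 in both over the first 4 bins and -0.13 (25 min) and -0.11 (40 min) over the last 4. At 10 min it was -0.16 over the first 4 bins and -0.014 over the last 4. These gradients include the background, and with the trough subtracted the 10 min ratio was lowest at 10 kb (0.300). The 25 and 40 min ratios thus fell along nearly parallel lines, the 40 min line lying higher throughout.

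**Figure D5:**
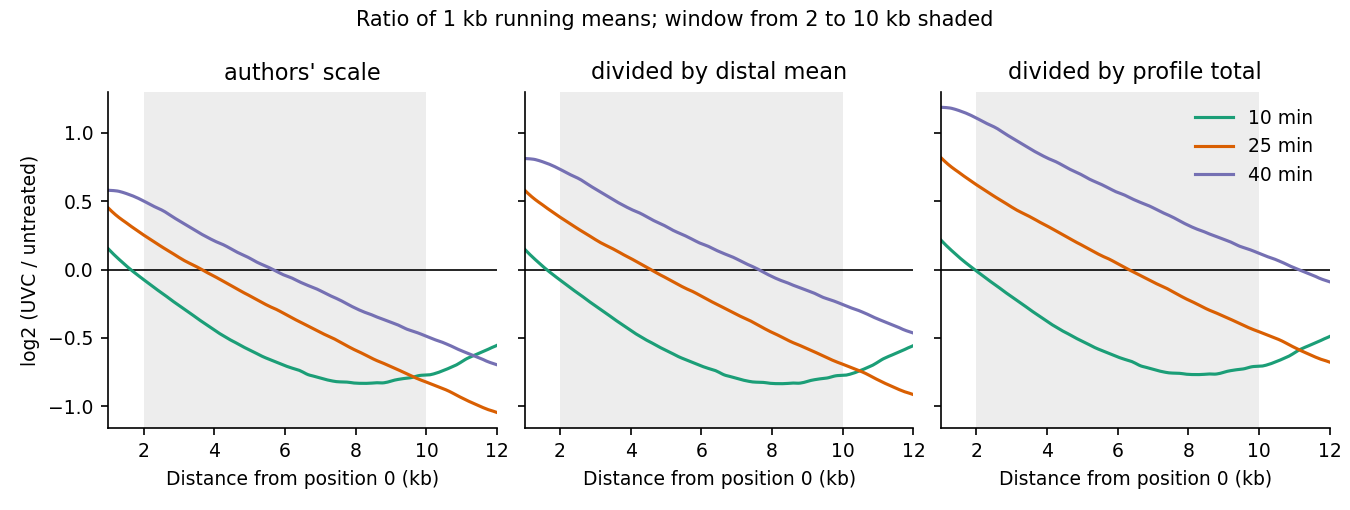
log2 ratio of irradiated to untreated signal (running means of 1 kb) against distance from position 0 in kb at 10, 25 and 40 min, on the authors' scale (left), after division by the distal mean (middle) and after division by the profile total (right); the shaded band is 2 to 10 kb and each line compares 1 library with 1 library. The crossing of 0 nearest to the start of genes moves outward with time in each panel, from 1.63 to 3.64 and 5.66 kb on the left, and lies at 11.1 kb for 40 min on the right.

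Where the ratio crosses 1 depends on the unstated scaling. With each profile divided by its distal mean the crossings lay at 1.62, 4.57 and 7.62 kb at 10, 25 and 40 min. With division by the profile total they lay at 1.95, 6.31 and 11.1 kb, the last outside the window. The 10 min positions are the last downward crossings before 2 kb, and those of 25 and 40 min the first downward crossings after 2 kb. Read in this way, the order of the 3 times was the same under the 3 scalings. The 25 min crossing would stay between 2 and 10 kb if the irradiated profile were multiplied by any factor from 0.840 to 1.77, and the 40 min crossing for factors from 0.706 to 1.40. At 10 min a factor of at least 1.05 would be needed to bring a crossing into the window.

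The neighbouring stretches behaved differently. Averaged over the first 2 kb, irradiated signal exceeded untreated signal at all 3 times (ratios of 1.11, 1.39 and 1.48). Averaged over the stretch from 10 to 25 kb, it was below untreated signal (0.854, 0.401 and 0.470). On the deposited scale the early gene body is thus where the ratio passed from above to below 1 at 25 and 40 min. The decay slope in that farther stretch was -0.086 and -0.082 per kb in the later irradiated libraries, shallower than the -0.15 and -0.14 within 2 to 10 kb. In the irradiated 10 min library it was -0.015, against -0.35. In untreated cells it was -0.065, -0.039 and -0.0073 in order of time, against -0.26, -0.016 and -0.011 within 2 to 10 kb. The fitted slope was thus steeper within 2 to 10 kb in 5 of the 6 libraries, the exception being untreated cells at 25 min. At 10 min, however, the farther stretch contained the trough of each profile (19.7 kb without irradiation, 16.8 kb with it). The slope fitted there to either 10 min library spans signal on both sides of its trough and is not a rate of decay alone. The mean difference over all libraries, these included, was -0.10 ± 0.136 log2 per kb (SD over 6 libraries). A two-sided exact permutation test paired within libraries gave p = 0.094 (0.188 after Benjamini-Hochberg adjustment over 2 tests). For the same reason it does not compare rates of decay alone. The 6 libraries differ in treatment and time and are not replicates of a group.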

How the data were processed

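Per the labels' protocols, GRO-seq libraries kept strand and gave 51 bp single-end reads. The deposited signal is a profile of coverage-like values averaged over genes for each library, at every base from -2 to 120 kb, per the file headers. The submitters' processing notes name BWA 0.5.9 and hg19 (GRCh37). The gene set, handling of strands and scaling are not given in the sources used here. In each library 100.0% of values lay within 0.05 of a whole multiple of 1 step.

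Profiles were analysed with Python 3.11.15, numpy 2.4.6, pandas 2.3.3 and matplotlib 3.10.9. Bins of 1 kb (8) and of 100 bp (80) were averaged, log2 slopes fitted by least squares, and ratios taken without a pseudocount. A crossing is where the ratio of 1 kb running means passes 1. The first downward crossing from 2 kb was reported, and at 10 min, where the window has none, the last before 2 kb. The distal mean covers positions in the farthest 10% of the downstream part, and the trough is the lowest 2 kb running mean beyond 2 kb. Slope and crossing functions were tested on simulated profiles. At any single time, irradiated and untreated cells, with 1 library each, were not tested against each other. Slopes were compared by exact permutation tests over 3 pairs of equal time and, between stretches, within 6 libraries (scipy 1.17.1), both chosen after seeing the values. Genes go unnamed, since files hold averages, and single bins named are the 1 kb bins, the crossings and the 3 strongest 100 bp deviations. The stretch and measures were chosen with earlier results of these data known. Alternatives changed bin width, summary, background, range and scaling.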

Additional observations from a re-analysis of the deposited data

Results flagged for a closer look

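Several results had opposite signs in untreated and irradiated cells or at different times. None of these differences in sign was tested, because each rests on 1 library per group.

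The share of the 0 to 120 kb signal held from 2 to 10 kb changed in opposite directions. From 10 to 25 min it changed by -4.70 percentage points in untreated and by 1.49 in irradiated cells. From 25 to 40 min the changes were -4.16 and 0.557, and over the whole span from 10 to 40 min -8.86 and 2.05. These shares are free of the scaling factor of a library. With the distal mean subtracted, the irradiated share was 57.7% at 25 min and 56.2% at 40 min, so that both treatments changed in the same direction over that interval.

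The window mean also changed in opposite directions, on the authors' scale. From 10 to 25 min the log2 change was -0.0087 in untreated and 0.22 in irradiated cells, the first of which is close to 0 and was 0.129 with the median over positions, the direction of the irradiated change. From 25 to 40 min it was -0.22 and 0.059, and from 10 to 40 min -0.23 and 0.28.

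The log2 ratio of irradiated to untreated signal over the window, in order of time, was -0.50, -0.28 and 0.0073. The sign at 40 min rests on a value close to 0, and it was -0.047 with the median over positions in place of the mean. Division by the profile total gave 0.093 at 25 min and 0.61 at 40 min.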

How the results depend on the processing

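Values follow the order 10, 25 and 40 min unless a time is named, and a change counts as a move when it exceeded the SE along the window (for crossings, 0.5 kb). Of 92 alternative values, 32 moved less than that, 57 moved and kept their sign (among them 6 linear slopes, which are in another unit) and 3 changed sign. Bins of 0.5 kb and bin medians left all 6 decay slopes within their SE, and smoothing over 0.5 or 2 kb left both crossings within 0.5 kb.

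Decay slopes (log2 per kb) were -0.39, -0.024 and -0.018 in untreated and -1.002, -0.24 and -0.20 in irradiated cells with the distal mean subtracted. The first irradiated value rests on a last bin (1.15) barely above the distal mean (1.13). With the trough subtracted they were -0.33, -0.023 and -0.018 against -0.53, -0.21 and -0.19. From 3 to 10 kb they moved in untreated cells to -0.014 and -0.0091 (25 and 40 min) and in irradiated cells to -0.33, -0.15 and -0.13. As linear slopes (percent of the first bin per kb) they were -10.02, -1.09 and -0.763 against -11.0, -7.27 and -6.74. The irradiated decay was the steeper at each time under each of these.

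The log2 ratio over the window moved at 10 min to -0.63 (trough subtracted), -0.75 (distal mean subtracted) and -0.68 (median). At 25 min it changed sign on division by the profile total, to 0.093, and moved to -0.14 on division by the distal mean. At 40 min it was 0.61 (total), 0.24 (distal mean), 0.20 (trough subtracted) and 0.14 (distal mean subtracted), and it changed sign with the median, to -0.047. The cause was not tested.

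The 25 min crossing moved to 6.31 kb (total), 4.57 kb (distal mean) and 4.19 kb (trough subtracted). The 40 min crossing moved to 7.62 kb (distal mean), 6.38 kb (distal mean subtracted) and 6.83 kb (trough subtracted), and division by the total left none within the window. At 10 min no setting gave a crossing within the window. Subtraction of the trough for crossings, and crossings sought beyond the window or in ratios of 2 times, were added once the data had been seen. The crossing of 25 over 10 min signal lay at 5.57, 6.97 and 6.43 kb in untreated and at 3.94, 4.03 and 4.19 kb in irradiated cells on the authors' scale, divided by the total and divided by the distal mean.

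The untreated log2 change of the window mean from 10 to 25 min was -0.34 (total) and changed sign with the median (0.129). From 25 to 40 min it was -0.46 (total) and -0.28 (distal mean), and from 10 to 40 min -0.80 and -0.49. The irradiated change moved with the median to 0.48 (10 to 25 min) and 0.54 (10 to 40 min), and with the distal mean to 0.105 (25 to 40 min).

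The share of the 0 to 120 kb signal was 59.8%, 32.7% and 17.2% in untreated and 45.01%, 57.7% and 56.2% in irradiated cells with the distal mean subtracted. With the trough subtracted it was 34.7%, 27.3% and 16.9% against 24.7%, 32.7% and 41.4%.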
